A study of Mus musculus with 6 samples.

Results

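DNA topoisomerases are the enzymes that relax and untangle DNA by cutting it and sealing it again. The mouse genes measured here were Top1, Top2a, Top2b, Top3a, Top3b and Top1mt. They were found by gene symbol in both deposited tables: 6 of 13932 genes, with 176 of 151811 splice junctions. The group was put together because an alternative acceptor of Top2a had differed between the genotypes in these same libraries, so the values of that acceptor are given below as a description, without a test.

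The cells were sorted as common myeloid progenitors (lineage negative, c-Kit positive, Sca-1 negative, CD34 positive and Fcgamma negative) from bone marrow of mice transplanted with marrow that carried the rtTA transactivator and a U2AF1 transgene, either wild type (WT) or S34F. After more than 6 weeks of engraftment, doxycycline chow given for 5 days switched on the transgene in both genotypes, and donor-derived cells were sorted. Each genotype had 3 libraries and each library pooled marrow of 4 to 5 mice, so a p-value measures the spread between pools. The label field for genotype read S34F in all 6 samples, so the genotype was taken from the titles. Gene counts per library ran from 46827909 to 51862032 for S34F and from 54727541 to 94562984 for WT, so the WT libraries were deeper. The defining progenitor genes Cd34, Kit, Mpo, Myb and Flt3, 5 of 6 listed, were all detected, at a summed 6538 to 8112 CPM for S34F against 5275 to 8809 CPM for WT. Mpo alone made up most of that sum, at 4322 to 5948 CPM for S34F and 3043 to 6538 CPM for WT. Genes of markers that the sort excludes, 6 of 7 listed, were detected too, all with negative log2 fold changes. They summed to 72.4 to 131 CPM for S34F and 86.3 to 168 CPM for WT, which overlap. Most of this came from the Fcgamma receptor genes Fcgr3, at 33.4 to 78.1 and 38.8 to 111 CPM, and Fcgr2b, at 35.4 to 49.1 and 41.5 to 51.3 CPM. CPM are counts divided by the TMM-scaled library size in units of 10 to the power of 6. The 6 dendritic cell genes of the marker list were all lower in S34F, at a summed 34.7 to 62.0 CPM against 145 to 311 CPM, and the 4 megakaryocyte genes summed to 81.6 to 110 CPM against 120 to 162 CPM. That second sum was mostly Itga2b, at 69.8 to 100.4 CPM for S34F against 113 to 150.2 CPM for WT, and of its 4 genes 2 had negative log2 fold changes (Itga2b and Gp1bb) and 2 positive ones (0.04 for both Vwf and Pf4). The 5 erythroid genes all had negative log2 fold changes, and their sums overlapped, at 23.2 to 29.4 CPM for S34F against 25.4 to 61.0 CPM for WT. The 6 neutrophil genes went both ways, 4 higher and 2 lower in S34F. They summed to 2068 to 4199 CPM for S34F and 2761 to 3152 CPM for WT. Genes of B and T cells, 4 of 5 listed, summed to 1.45 to 2.66 and 2.43 to 3.17 CPM. In bulk RNA, fewer cells of a type and less RNA per cell cannot be told apart.

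Type I enzymes cut a single strand of DNA and type II enzymes cut both strands and pass another duplex through the gap. Top2a is the type II enzyme of dividing cells, needed to separate sister chromosomes in mitosis, while Top2b is also made in cells that do not divide. U2AF1 is the subunit of the U2AF splicing factor that contacts the AG at the end of an intron, and the S34F substitution is known to change which base it accepts at intron position -3, just before that AG, with T disfavoured.

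The Top2a choice lies in the last intron of the gene, which begins 40 bases after the stop codon and therefore sits in the 3' untranslated region. Of the 6 genes, Top2a alone had an annotated transcript with an intron after the stop codon, 1 of its 2 transcripts with an annotated stop. From the donor at chromosome 11 position 98855078 (mm9, minus strand, last exon base) reads joined 3 acceptors, whose first exon bases are 98854727 (proximal), 98854719 (middle, 8 bases on) and 98854639 (distal, 88 bases on from the proximal). The proximal and distal acceptors each start the last exon of 1 annotated transcript, and the middle one is not annotated. All 3 leave the protein unchanged. With the proximal acceptor the annotated 3' untranslated region is 511 bases long, and with the distal acceptor and the same end it is 423 bases. A further annotated transcript keeps the whole intron. The windows below are shown because they carry the choice. Each holds the last 20 intron bases and the first 10 exon bases of the mm9 genome, 5' to 3', with intron positions -3 to -1 in capitals.
Top2a proximal acceptor, chr11:98854718-98854747, minus strand: aacatggtccttgttttCAGttttataggt
Top2a middle acceptor, chr11:98854710-98854739, minus strand: ccttgttttcagttttaTAGgtagaattcg
Top2a distal acceptor, chr11:98854630-98854659, minus strand: cgtgatgcattttgtttAAGccatgagaag

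The base at position -3 was C at the proximal acceptor, T at the middle and A at the distal one. Of the 17 bases before position -3, 11 were pyrimidines at the proximal acceptor, 13 at the middle and 11 at the distal. The windows of the proximal and middle acceptors overlap.

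In S34F the proximal acceptor took a smaller part of the reads and the distal one a larger part. The proximal acceptor had 1195, 810 and 1067 reads in S34F replicates 1 to 3 and 1709, 2560 and 3005 reads in WT replicates 1 to 3. The distal acceptor had 430, 383 and 452 reads in S34F and 237, 317 and 315 in WT. The distal acceptor thus had its 3 highest read numbers in the 3 S34F libraries, although those were the shallower ones. Of the reads of both acceptors, the proximal share was 73.5%, 67.9% and 70.2% in S34F and 87.8%, 89.0% and 90.5% in WT. The genotypes did not overlap: the lowest WT library stood above the highest S34F library, and the Wilson 95% intervals of these libraries were 86.3% to 89.2% and 71.3% to 75.6%. These intervals cover counting error only. The middle acceptor had 4, 0 and 60 reads in S34F and 68, 90 and 121 in WT. Its share was 0.246%, 0% and 3.8% in S34F, and 3.38%, 3.03% and 3.52% in WT. S34F replicate 3 was thus above every WT library and the other S34F libraries were at or near 0; the 0 of 1193 reads in S34F replicate 2 allows a share of up to 0.251%. In the authors' deposited table the log2 fold change of junction use was -0.77 for the proximal and 1.02 for the distal junction.

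**Figure D1:**
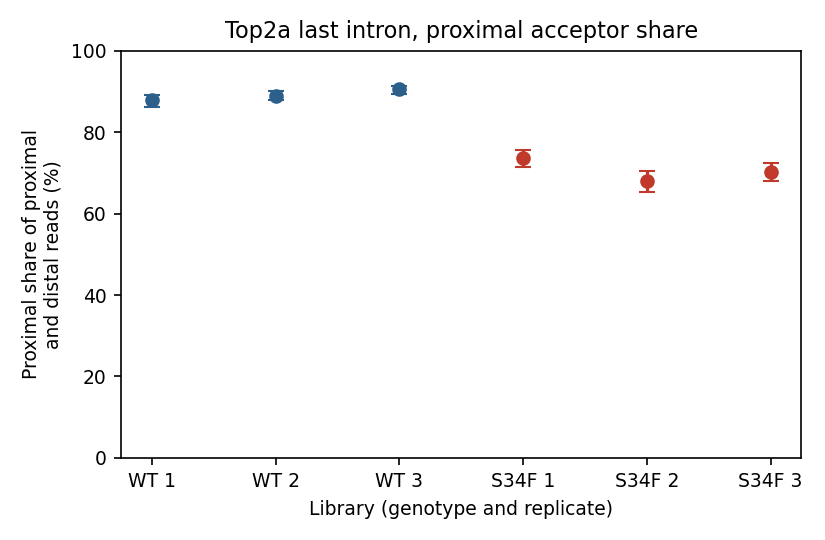
Share of the proximal acceptor among proximal and distal reads of the last Top2a intron (y axis, percent) in each library (x axis), with Wilson 95% intervals as bars. The WT libraries lie at 87.8% to 90.5% and the S34F libraries at 67.9% to 73.5%.

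The size of this shift can be set beside other deep sites. At donors with at least 1000 reads in every library there were 1334 acceptor forms in 415 genes, with a median absolute change of 0.684 points. The Top2a distal form, with a rise of 18.5 points among all reads of the donor, had the largest absolute change of these and the proximal form, at -16.5 points, the fourth largest. Both forms share their reads, and this rank is of the value for which Top2a was picked.

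Reads of the last intron as a whole were also fewer in S34F, relative to the intron before it. Per 100 reads of the intron just before it, the last intron had 45.0, 42.4 and 49.0 reads in S34F and 67.4, 66.5 and 55.3 in WT. The proximal acceptor alone had 33.0, 28.8 and 33.1 reads per 100 in S34F against 57.2, 57.3 and 48.3 in WT, and the distal acceptor 11.9, 13.6 and 14 against 7.93, 7.10 and 5.06. The gain of the distal acceptor, 6.48 reads per 100 on average, was thus smaller than the loss of the proximal, -22.6 reads per 100. As a comparison inside the same gene, the intron 2 before the last had 67.8, 72.0 and 73.1 reads per 100 in S34F and 77.6, 71.1 and 69.9 in WT, with the genotypes overlapping. Junction reads do not measure the annotated transcript that keeps the intron.

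**Figure D2:**
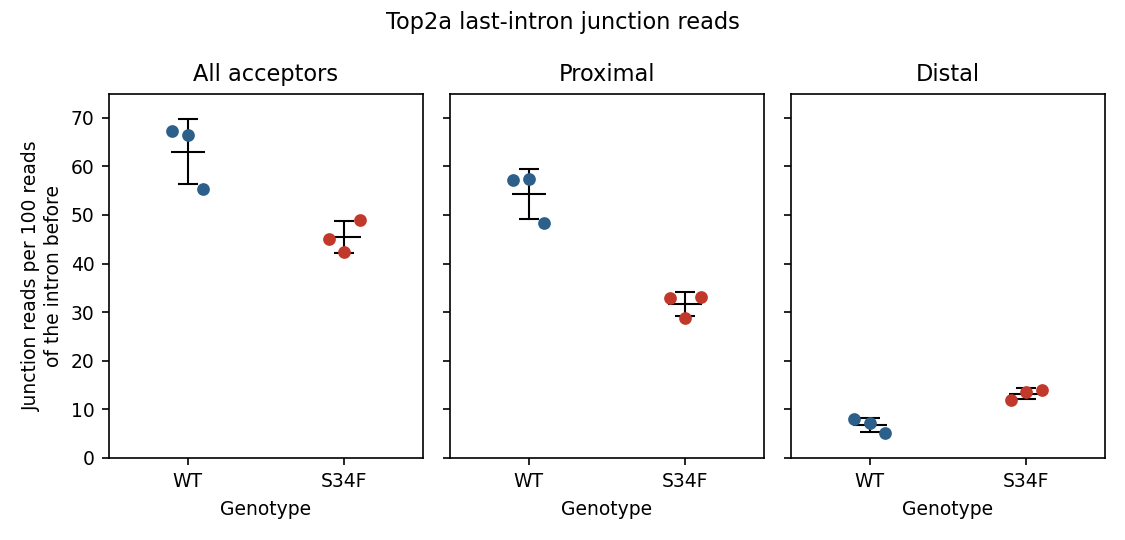
Junction reads of the last Top2a intron per 100 reads of the intron before it (y axis) for all acceptors, the proximal and the distal acceptor; points are libraries, bars the mean and SD of 3 libraries. All acceptors together average 45.5 in S34F and 63.0 in WT, the proximal 31.6 and 54.3, and the distal 13.2 and 6.70.

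Of the donors compared along Top2a, the last had the lowest relative reads in S34F, but not in WT. For 35 donors with at least 6000 reads in all, reads were divided by those of the library's median donor. The last donor was at 0.606 ± 0.0429 in S34F and 0.843 ± 0.0379 in WT (mean ± SD, n = 3), a log2 ratio of -0.48, while the other 34 donors had log2 ratios from -0.17 to 0.36. At 14 of the 35 donors the genotypes did not overlap, 7 higher and 7 lower in S34F. The share of such donors in other genes was not computed, so this count has no background to be read against. Across the annotated introns, the first 18 of 37 annotated donors held 54.9%, 54.0% and 53.6% of the reads in S34F. In WT they held 53.2%, 52.9% and 49.97%, without overlap. The reads counted include those of the last intron, which chose this topic, so this share is described without a test. Over 4077 genes the median of this 5' share was 47.9 ± 0.277% in S34F and 48.0 ± 0.112% in WT.

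**Figure D3:**
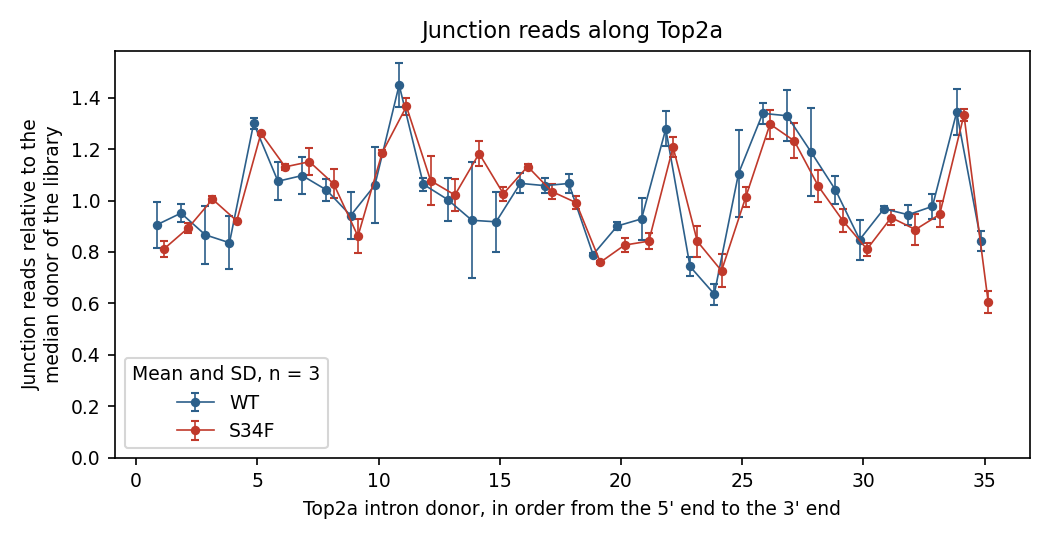
Junction reads at 35 Top2a donors (x axis, from the 5' to the 3' end) relative to the median donor of the library (y axis), mean and SD of 3 libraries per genotype. The last donor is at 0.606 in S34F and 0.843 in WT.

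Choices of Top2a also lie in coding sequence, and the windows of an acceptor pair there are shown for comparison with the last intron. The second acceptor is 4 bases inside the last coding exon, which would shift the frame, and is not annotated.
Top2a last coding exon, annotated acceptor, chr11:98855240-98855269, minus strand: cttggctcttctctgttTAGaaagcaaagg
Top2a last coding exon, second acceptor, chr11:98855236-98855265, minus strand: gctcttctctgtttagaAAGcaaagggaga

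The second acceptor of the last coding exon took 4.39%, 5.26% and 4.25% in S34F and 0.10%, 0.0672% and 3.95% in WT. All S34F libraries were above all WT libraries, but WT replicate 3 lay next to S34F and far from the other WT libraries, and the change of 3.26 points did not pass (edgeR adjusted p = 0.668, DESeq2 adjusted p = 0.124). WT replicate 3 was also the deepest library, and the part of depth in this was not tested. Without it the edgeR adjusted p was 0.0922, and with any other single library left out it was 0.720 to 0.961.

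A coding exon of Top2a was skipped in few reads. This exon of 146 bases (chromosome 11, 98880110 to 98880255) is not a multiple of 3, so the skipped form changes the frame. Measured at the acceptor that follows it, the skipping junction took 1.5%, 1.90% and 1.66% of the reads in S34F and 1.17%, 1.19% and 1.30% in WT. The genotypes did not overlap, but the log2 change in odds of 0.47 with an SE of 0.20 did not pass (edgeR adjusted p = 0.778, DESeq2 adjusted p = 0.701). Measured at the donor before it, the genotypes overlapped, with 2.07%, 2.69% and 2.28% in S34F and 1.66%, 1.78% and 2.42% in WT.

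The level of Top2a itself did not pass the test. Its CPM were 1461, 1266 and 1339 for S34F and 1199, 1371 and 1303 for WT, with the genotypes overlapping. The log2 fold change was 0.07 with an SE of 0.10 (edgeR adjusted p = 0.813, DESeq2 adjusted p = 0.866), and 0.07 in the authors' deposited table. Top2a covers chromosome 11 positions 98854257 to 98885503. It was the most abundant topoisomerase gene per length: at 149 ± 10.9 CPM per kb of exon in S34F and 142 ± 9.57 in WT (mean ± SD, n = 3) it made up 52.8 ± 0.882% and 53.7 ± 2.06% of the summed per-kilobase level of the 6 genes. Exon lengths here are of all annotated exons merged, retained introns included, so a gene with many forms is set low. These lengths ran from 1903 bases for Top1mt to 10457 bases for Top1, and the order of genes per kilobase can depend on them.

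**Figure D4:**
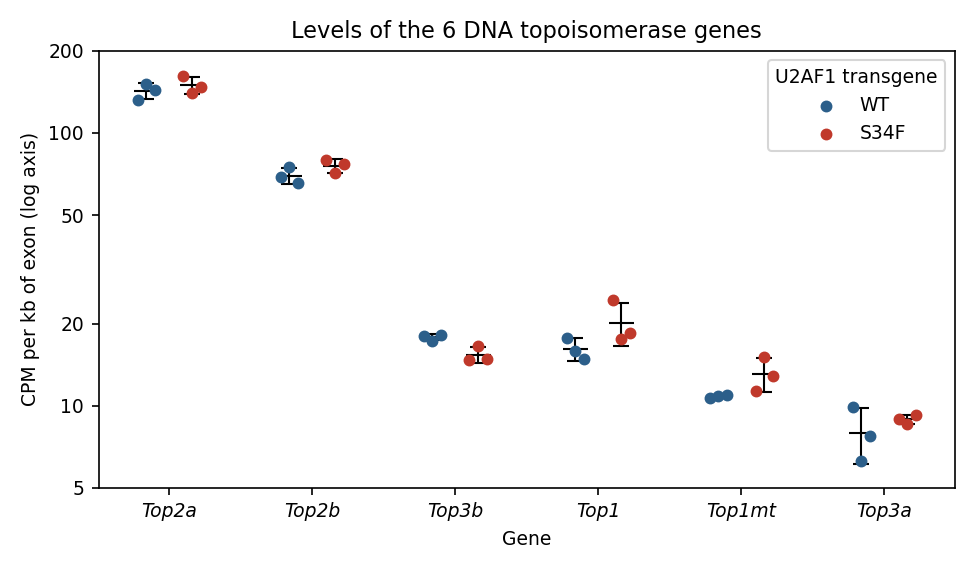
Level of each topoisomerase gene in CPM per kb of exon (y axis, log scale), in order of the WT mean; points are libraries, bars the mean and SD of 3 libraries per genotype. Top2a lies near 142 and Top2b near 69.6 in WT, and the other genes lie below 25 in every library.

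Top2b, the type II enzyme that also serves resting cells, came second, at 75.8 ± 4.29 CPM per kb in S34F and 69.6 ± 4.79 in WT. Its CPM were 504, 451 and 490 for S34F against 437, 475 and 415 for WT, which overlap. The ratio of Top2a to Top2b per kilobase was 2.03, 1.97 and 1.91 in S34F and 1.92, 2.02 and 2.20 in WT (exact permutation p = 0.5). This permutation test is two-sided, and its smallest p with 3 against 3 libraries is 0.1. The log2 fold change of Top2b was 0.12 with an SE of 0.10 (edgeR adjusted p = 0.671). The gene lies on chromosome 14 at 17197693 to 17263301.

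The other 4 genes were lower per kilobase. In WT, Top3b was at 17.9 ± 0.501 CPM per kb, Top1 at 16.1 ± 1.5, Top1mt at 10.8 ± 0.161 and Top3a at 7.97 ± 1.84. Per kilobase, Top3b and Top1 lay within their summed SDs, while Top1mt and Top3a were separated in all 3 WT libraries. Not divided by length, the WT means were 169 CPM for Top1, 149 for Top3b, 36.6 for Top3a and 20.6 for Top1mt. Both orders are then turned, so they depend on the merged lengths. In S34F the order of Top3b and Top1 per kilobase was the other way. Top1 was at 20.1 ± 3.64 and Top3b at 15.4 ± 1.03 CPM per kb, followed by Top1mt at 13.1 ± 1.91 and Top3a at 8.91 ± 0.343. The ratio of Top1 to Top3b per kilobase was 1.65, 1.06 and 1.25 in S34F. In WT it was 0.983, 0.916 and 0.812, without overlap (exact permutation p = 0.1, the smallest possible). Top1 had the highest log2 fold change of the topoisomerase genes (0.32) and Top3b the only negative one (-0.22). The ratio and its p therefore restate these differences in the same libraries and are not separate evidence for a changed order. No background of other gene pairs was computed.

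Top1 encodes the main nuclear type I enzyme, which relaxes DNA ahead of and behind transcribing polymerase (chromosome 2, 160471624 to 160548500). Its CPM were 254, 184 and 194 for S34F and 186, 166 and 155 for WT. S34F replicate 1 was well above the rest and S34F replicate 2 lay below WT replicate 1. The log2 fold change was 0.32 with an SE of 0.14 (edgeR adjusted p = 0.552, DESeq2 adjusted p = 0.486), and 0.16 without S34F replicate 1. The position of its junction reads varied between libraries. The first 10 of 21 donors of Top1 held 44.7%, 39.7% and 44.5% of the reads in S34F and 42.7%, 32.9% and 30.4% in WT (exact permutation p = 0.2). WT replicate 1 was with the S34F libraries, and WT replicates 2 and 3, the deepest libraries, were low. The part of depth in the Top1 counts was not tested. Top2b showed 48.1%, 47.0% and 47.1% against 46.2%, 45.4% and 43.8% on the same measure (exact permutation p = 0.1).

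Top3b, which acts with Tdrd3 and works on RNA as well as DNA, had the only negative log2 fold change of the 6 genes. Its CPM were 123, 138 and 124 for S34F and 151, 144 and 152 for WT, without overlap (chromosome 16, 16870829 to 16893083). The log2 fold change was -0.22 with an SE of 0.09, with an unadjusted edgeR p of 0.0439 that did not pass the correction (edgeR adjusted p = 0.548, DESeq2 adjusted p = 0.462). Top1mt, the type I enzyme of mitochondrial DNA, had 21.6, 28.8 and 24.4 CPM in S34F and 20.3, 20.6 and 20.9 CPM in WT, also without overlap (chromosome 15, 75487465 to 75509230). Its log2 fold change of 0.28, with an SE of 0.13, did not pass (edgeR adjusted p = 0.569). S34F replicate 1 of Top1mt was close to the WT libraries. Top3a, the type I enzyme that dissolves joined DNA together with Blm and Rmi1, had 41.2, 39.3 and 42.4 CPM in S34F and 45.6, 28.8 and 35.6 CPM in WT, where the WT libraries spanned the S34F range (log2 fold change 0.16, SE 0.17, edgeR adjusted p = 0.734; chromosome 11, 60553560 to 60590867).

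In all, edgeR called 0 of the 6 genes, and 0% of all 13905 genes tested. At an unadjusted p under 0.05 it gave 1 of the 6, against 9.10% of all genes, and DESeq2 called 0 of the 6, against 0.689% of all genes. The genotypes did not overlap for 2 of the 6, against 15.6% of all genes. Of these, Top3b was lower in S34F (1 of 6, against 8.47% of all genes) and Top1mt higher. None of the 6 genes in the authors' deposited table had an adjusted p under 0.05, against 0.63% of all genes, and the lowest was 0.473 for Top3b. The median log2 fold change was 0.14 over the 6 genes and -0.01 over all genes. The dendritic marker sum and the Itga2b level, which did not overlap between the genotypes, were given above, and their part in these levels was not tested.

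Over the 6 libraries, the genes whose log2 CPM followed Top2a most closely, of 9165 with a mean of at least 10 CPM, were Snhg4 (Pearson's r = 0.99), Atad5 (0.99), Scoc (0.98), Fbxl5 (0.98) and Kif20a (0.97). Atad5 unloads the replication clamp from DNA and Kif20a is a kinesin of late mitosis. These points share library depth, n is 6, and the values are a description. For the other topoisomerase genes r with Top2a was 0.74 for Top2b, 0.53 for Top1, -0.12 for Top1mt, -0.34 for Top3a and -0.67 for Top3b.

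Genes that work with topoisomerases did not pass as single genes either. Of 29 listed partners, which included repair enzymes of trapped topoisomerases, partners of Top3a and Top3b, and condensin subunits, 26 were measured, and edgeR and DESeq2 each called 0, against 0% and 0.689% of all genes. At an unadjusted edgeR p under 0.05 there were 4 of the 26, all higher in S34F, against 9.10% of all genes, and the median log2 fold change was 0.08. The lowest p-values were those of Smc2, Smc4 and Fmr1. Smc2, a core condensin subunit that compacts chromosomes beside Top2a, was at 335, 297 and 308 CPM for S34F against 258, 225 and 214 CPM for WT (log2 fold change 0.43, SE 0.11, edgeR adjusted p = 0.538, DESeq2 adjusted p = 0.0648). Its partner Smc4 was at 538, 497 and 476 against 435, 328 and 297 CPM (log2 fold change 0.51, SE 0.15, DESeq2 adjusted p = 0.156). For both, every S34F library was above every WT library. Among the other condensin subunits, the log2 fold change was 0.23 for Ncapg2 (SE 0.09, edgeR adjusted p = 0.538), 0.17 for Ncapg, 0.01 for Ncapd3, -0.05 for Ncapd2, -0.13 for Ncaph and -0.22 for Ncaph2. Fmr1, an RNA-binding protein gene whose product is found with Tdrd3 and Top3b, was at 90.05, 78.3 and 79.2 CPM in S34F and 73.1, 63.1 and 57.9 CPM in WT (log2 fold change 0.35, SE 0.12, edgeR adjusted p = 0.538). Genotypes did not overlap for 8 of the 26 partners, 6 higher and 2 lower, against 15.6% of all genes.

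Genes of mitosis and proliferation, with which Top2a is usually made, went both ways. All 20 listed were measured, 10 with positive and 10 with negative log2 fold changes, and the median was 0.00. edgeR and DESeq2 called 0 of the 20, against 0% and 0.689% of all genes. At an unadjusted edgeR p under 0.05 there were 3 of the 20, against 9.10% of all genes: Cenpe, a kinesin of the kinetochore (log2 fold change 0.41), Hmmr, a spindle gene (0.32), and Bub1b, a spindle checkpoint gene (-0.34). Mki67, the usual mark of cycling cells, was at 1428 ± 123 CPM for S34F against 1258 ± 119 CPM for WT (mean ± SD, n = 3; edgeR adjusted p = 0.616).

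Beyond the last intron of Top2a, 28 acceptor forms at 13 donors and 27 donor forms at 12 acceptors of the topoisomerase genes had enough reads to be tested, at least 20 in every library. None passed in edgeR, DESeq2 or limma. Among all 29709 acceptor forms edgeR called 0%, DESeq2 1.24% and limma 0.199%, and the genotypes did not overlap for 17.0%. For the topoisomerase acceptors they did not overlap for 2 of the 28, both forms of the same Top2a site. At an unadjusted edgeR p under 0.05 there were 0 acceptor forms of these genes, against 7.51% of all. Among all 30084 donor forms edgeR called 0.00997%, limma 0.219% and, of 28917, DESeq2 0.816%, while 6.42% had an unadjusted edgeR p under 0.05 and 14.8% did not overlap. Of the 27 topoisomerase donor forms, 1 had such a p and 5 did not overlap. The 2 forms of a site with 2 choices mirror each other and count as 1 observation. Each form and the rest of its site also had to hold at least 1% of the reads. No acceptor choice of Top1 met this: at the donor 160540002 a second acceptor had 0 to 19 reads per library beside 370 to 783 of the first. Top1mt had no shared donor or acceptor among its 13 junctions.

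**Figure D5:**
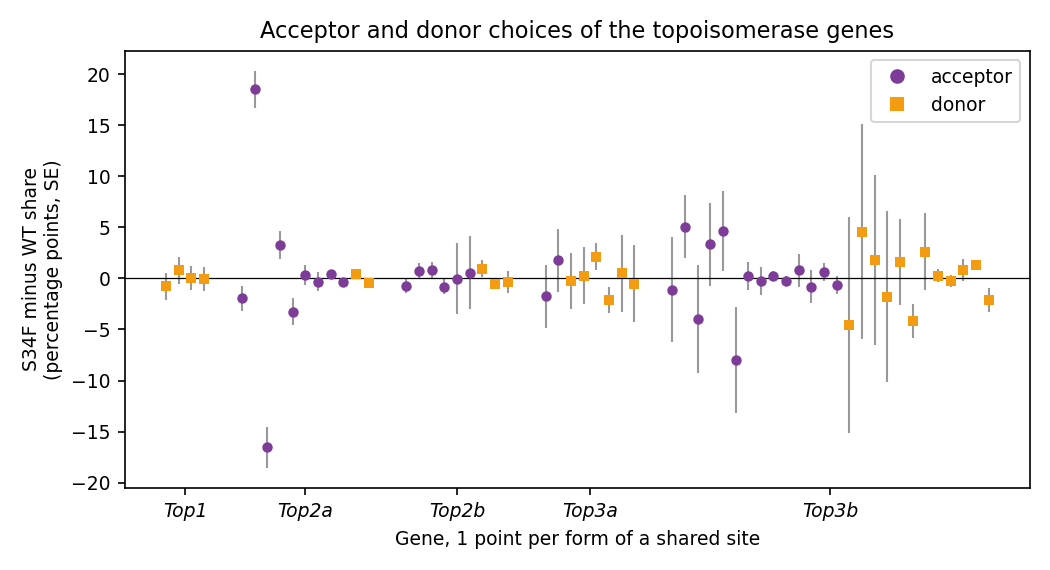
Change of share in percentage points (S34F minus WT, y axis) with its SE for every form tested or described, grouped by gene (x axis); circles are acceptors and squares donors. The Top2a last-intron forms at 18.5 and -16.5 points lie outside all others, which reach 8.0 points in size.

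Top3b had more tested sites than any other of these genes, with 6 of the 13 shared donors and 5 of the 12 shared acceptors. The windows of an acceptor pair are shown because they have the bases T and C at position -3, the contrast for which the S34F protein is known.
Top3b upstream acceptor, chr16:16887905-16887934, plus strand: tggcagtggtatctctcTAGgcttcacaga
Top3b downstream acceptor, chr16:16887931-16887960, plus strand: cagagatcatgccttggCAGagcgtgcccc

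These acceptors lie 26 bases apart. The upstream one starts a coding exon and is annotated in 4 transcripts, and the downstream one is annotated in 1. The downstream one, with C, took 16.3%, 12.0% and 15.7% of the reads in S34F and 13.3%, 15.6% and 12.7% in WT. The genotypes overlapped, with a change of 0.806 points and an SE of 1.6 (edgeR adjusted p = 0.981, DESeq2 adjusted p = 0.967), at 368 to 763 reads per library. The largest change among the tested forms was at the 5' end of Top3b, where a noncoding first-exon donor at chromosome 16 position 16871148 joined 3 acceptors. The farthest of these, at 16877925, took 69.5%, 52.9% and 63.0% in S34F and 73.1%, 69.5% and 66.8% in WT, a change of -8.0 points with an SE of 5.17 at 151 to 368 reads (edgeR adjusted p = 0.846). S34F replicate 2 was far below the rest and S34F replicate 1 lay within the WT range. The donor form with the lowest p, at Top3b 16892244 to 16892508, took 2.67%, 2.22% and 1.02% in S34F and 0.889%, 0.576% and 0.560% in WT (edgeR unadjusted p = 0.0271, adjusted p = 0.727, DESeq2 adjusted p = 0.526). The form had 8, 7 and 3 reads in S34F and 4, 3 and 4 in WT, of 295 to 714 at the site.

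In Top2b an unannotated acceptor 6 bases inside a coding exon was high in 1 library of each genotype. It is printed beside its annotated neighbour because of this pattern.
Top2b annotated acceptor, chr14:17261832-17261861, plus strand: gtttttcatgtgtttttTAGgtaaaggccg
Top2b unannotated acceptor, chr14:17261838-17261867, plus strand: catgtgttttttaggtaAAGgccgaggggc

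The unannotated acceptor had 115, 2 and 1 reads in S34F and 2, 188 and 4 in WT, which is 7.55%, 0.163% and 0.0778% against 0.158%, 7.54% and 0.177%. S34F replicate 1 and WT replicate 2 held nearly all of its reads (edgeR adjusted p = 0.9993). Skipping of a Top2b coding exon of 92 bases (chromosome 14, 17246416 to 17246507) is annotated. Measured at the donor 17246270, it took 3.33%, 2.77% and 1.36% in S34F and 1.11%, 1.26% and 2.67% in WT, which overlap (change 0.809 points, SE 0.769, edgeR adjusted p = 0.840). A longer annotated junction, from 17245633 to 17249071, also passes over this exon. Of the reads of its donor it took 3.89%, 3.30% and 4.49% in S34F and 4.20%, 3.87% and 5.89% in WT. These overlap too (change -0.760 points, edgeR adjusted p = 0.903). In Top3a the unannotated junction from 60580380 to 60590424 took 4.05%, 2.70% and 5.45% in S34F and 7.48%, 10% and 0% in WT, at 74 to 148 reads, and the 0 of 77 reads in WT replicate 3 allows a share of up to 3.90%. In Top1 the minor donor at 160528238 took 3.47%, 5.56% and 3.10% in S34F and 4.97%, 2.84% and 6.64% in WT (edgeR adjusted p = 0.965). In the authors' deposited table the lowest adjusted p of any topoisomerase junction outside the last intron of Top2a was 0.210.

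The bases at position -3 of the annotated acceptors of these genes can be set beside all genes. Of 145 acceptors, 72 had C (49.7%), 63 had T (43.4%), 10 had A and 0 had G, against 62.7% C, 31.1% T and 5.90% A over 122763 acceptors of all genes. T was at 20 of 38 acceptors in Top2a and 19 of 35 in Top2b, but at 2 of 13 in Top1mt. The A of the distal Top2a acceptor was 1 of 5 in that gene. These are counts of letters and no test was made.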

How the data were processed

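RNA was depleted of ribosomal RNA and sequenced from strand-specific libraries, per the labels' protocols. The series text names TopHat 2.0.8 and mm9. Bowtie2 2.1.0, Cufflinks 2.1.1, HTSeq 0.5.4p1 and DESeq2 1.6.1 are named per the submitters' processing notes, with no role given. Neither the annotation nor the strand setting behind the counting is stated, so reads of overlapping or antisense genes may be included. Per gene and per junction, the authors deposited raw counts, log2 fold changes and adjusted p-values. These last values are used only where their table is named. Junction positions are the exon bases next to the intron: one base inward, 98.5% of 151811 junctions had GT and AG in mm9.

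Gene counts were tested with edgeR 4.0.16 (R 4.3.3; TMM, default filter, quasi-likelihood F test) over all genes, with DESeq2 1.42.0 as the alternative. The SE is the log2 fold change over the root of F. For splice choices, each acceptor of a donor, or donor of an acceptor, was set against the others (20 reads at the site in every library, 1% for the form and the rest), with terms for library, form and genotype by form, in edgeR, DESeq2 and limma 3.58.1 (0.5 added to each count). P-values were adjusted by Benjamini-Hochberg over each whole table, with a threshold of 0.05, two-sided, and scripts were tested on simulated data. Genes named were the 6 topoisomerases and, of the lists, those called or the 3 of lowest edgeR p, plus the 5 genes most like Top2a; single condensin genes, Mki67 and the splice choices described were picked after their values were seen. The members and lists were chosen with earlier results of these data known. Acceptor, donor and gene fits were repeated with other filters, scalings and with each library left out. Of the tested Top2a sites, 1 more acceptor site is counted in the totals and its values are not reported here.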

Additional observations from a re-analysis of the deposited data

How the results depend on the processing

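The levels of the 6 genes kept their direction and stayed above the threshold in all 60 alternative fits. With a library left out, the log2 fold change ran from 0.16 to 0.41 for Top1, 0.01 to 0.12 for Top2a, 0.01 to 0.35 for Top3a and 0.16 to 0.37 for Top1mt. The counts over all genes moved: edgeR called 0 genes, DESeq2 96, edgeR with the replicate block 5, and between 0 and 1172 with a library left out, the 1172 without WT replicate 1. None of the 6 genes was called there (lowest adjusted p = 0.125, Top3a). Acceptor calls were 0 in edgeR, 368 in DESeq2, 59 in limma, and 5 when both forms needed 5% of the reads. Donor calls were 3 in edgeR, 236 in DESeq2, 66 in limma, 0 with the replicate block, and 0 to 5 with a library left out. Replicate numbers were not used as pairs in the main fits. Same-numbered libraries correlated at 0.21, 0.27 and 0.02 in their deviations from the group means. S34F replicates 1 and 2 correlated best with the WT library of their own number, and S34F replicate 3 with WT replicate 1 (0.08). Whether equal numbers mark a shared batch was not tested.

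The Top2a proximal share changed by -18.5 points, by -16.5 over all reads of the donor, by -18.5 from summed reads, and by -20.0 to -17.2 with a library left out. Among choices without a call, log2 changes in odds turned sign. For Top3a 60580380 the value was 0.20 in limma and ran from -1.12 to 0.26 with a library left out (0.26 without WT replicate 2). With a library left out, the range was -0.0055 to 0.25 for Top3b 16887951 (lowest without S34F replicate 1), -0.59 to 0.040 for the Top1 donor 160528238 (highest without WT replicate 3), and -2.53 to 2.14 for the Top2b acceptor 17261858 (1.17, 1.33 and 2.14 without S34F replicate 2, S34F replicate 3 and WT replicate 2). Over all 55 forms, 59 of 568 alternative values turned sign and none was called.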
